A study of Mus musculus with 12 samples.

Results

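The genes described here carry the growth hormone signal in liver: the receptor Ghr, the transcription factors Stat5a and Stat5b, the feedback inhibitors Socs2 and Cish, the hormone Igf1, its partners Igfals, Igfbp2 and Igfbp3, and the repressor Bcl6. They were taken as the probe sets whose platform annotation names exactly 1 of these 10 symbols. All 10 genes were measured, at 18 of the 22626 probe sets tested, among 12393 genes with a probe set of their own. Liver RNA came from C57Bl/6J mice aged 6 to 8 weeks, either wild type or Aag knock-out, with 1 Affymetrix array per animal and 3 animals per group. The groups were untreated wild type, MMS-treated wild type, untreated Aag knock-out and MMS-treated Aag knock-out. Treatment was 1 intraperitoneal dose of 75 mg/kg methyl methanesulfonate (MMS), a DNA-methylating agent, 6 hours before the liver was taken. Aag, also named Mpg, is a DNA repair enzyme that cuts out bases damaged by alkylation. The sources used here do not say how the knock-out line was made, whether controls were injected, which sex the mice had, or when in the day livers were taken.

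Growth hormone reaches the liver in pulses. Its receptor activates the kinase JAK2, which phosphorylates STAT5; STAT5 then enters the nucleus and switches on Igf1, Igfals, Socs2 and Cish, and the last 2 inhibit the receptor. IGF1 leaves the liver and circulates bound to IGFBP3 and to the protein of Igfals, the acid-labile subunit, while IGFBP2 binds IGF1 without that subunit. BCL6 is a repressor that binds many STAT5 sites and is itself lowered by STAT5, and in mice many genes of this axis differ between males and females.

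STAT5 binds a palindrome that reads TTCNNNGAA on either strand. To show which members carry these letters near a start site, RefSeq windows of build GRCm38.p6, from 250 bases before to 50 bases after a start, were searched; 9 of the 10 genes had at least 1 window, 16 windows in all, and Socs2 was not searched. The motif was found in 5 of the 16 windows, those of Cish, Igfals and Bcl6, against 8.3% of 32851 windows of the same length over all genes. The same outer letters with 4 bases between them were in 0 of the 16 and in 6.95% of all windows. A match is a description of the letters and not a measured binding site. The 7 stretches below hold every match, 5′ to 3′ on the gene's strand with the motif in capitals, and positions count the first base of the motif from the start site, where 1 is the first transcribed base.
Cish (chr9:107296654-107296683, plus strand, positions 1 and 12): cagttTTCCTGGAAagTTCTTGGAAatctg
Igfals, the first start (chr17:24877598-24877627, plus strand, position -236): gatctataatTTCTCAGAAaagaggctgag
Igfals, the second start (chr17:24878163-24878192, plus strand, position -58): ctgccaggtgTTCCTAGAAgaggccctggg
Bcl6, the first start (chr16:23988951-23988980, minus strand, position -118): agcaaattagTTCTCAGAAttccagaggcc
Bcl6, the second start (chr16:23981432-23981461, minus strand, position -168): aggccgcggcTTCCTGGAAagttacttctc
Bcl6, the second start (chr16:23981386-23981415, minus strand, position -122): ggcaggagtgTTCTGTGAAatccttagagc
Bcl6, the second start (chr16:23981352-23981381, minus strand, position -88): atcgactacgTTCCGGGAAtgagagggctg
Cish carries a pair of matches side by side, and its first match and one of Bcl6 share the letters TTCCTGGAA. With all 12 arrays none of the probe sets of Cish, Igfals and Bcl6 passed the test in the comparisons below. Cish passed in the averaged response without untreated knock-out animal 3 and without both knock-out animals numbered 3. Bcl6 at 1421818_at passed in the knock-out response without treated knock-out animal 3 alone. These results are given with their values.

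Array medians ran from 7.42 to 7.75 on the log2 scale, and centring on them changed the calls, as given below. Correlations between arrays were 0.962 to 0.995, and 9 of the 12 arrays correlated best with an array of their own group. Without the knock-out arrays numbered 3 the number of probe sets called in the knock-out response to MMS went from 341 to 3326. Without treated animal 3 alone it was 3264. For that reason the knock-out results of some probe sets of the axis are also given without both arrays. This choice rests on the count of calls and not on a fault found in the arrays. Adjusted p values without them are therefore descriptions only. Eif2s3y, a Y-linked gene, lay between 10.77 and 11.45 on all 12 arrays, above every array median. Xist, the transcript of the inactive X, lay between 4.99 and 6.76 at its brightest probe set, below every array median. All 12 arrays thus carried a male pattern, although the sources used here do not state the sex. The targeted gene Mpg was at most 5.75 in knock-out and at least 6.21 in wild-type liver at 1 of its 2 probe sets, a difference of -1.10 ± 0.21 without MMS that did not pass (adjusted p = 0.356), and its values overlapped at the other; which exons these probe sets read was not analysed here. The hepatocyte markers Alb, Apoa1, Apob, Ttr, Asgr1, Cps1, Hnf4a, Tat and Fgb were all bright, with a mean of 13.58 to 13.89 on each array. All values below are log2 expression values; they compare arrays at the same probe set and never the levels of different genes.

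In wild-type liver Ghr, Stat5a, Stat5b and Igfbp3 were lower 6 hours after MMS at 1 probe set each, while Igf1, Socs2, Cish, Igfals, Igfbp2 and Bcl6 did not pass the test. With limma and Benjamini-Hochberg adjustment over all probe sets at 0.05, 4 of the 18 probe sets were called, all lower, which is 22.2%. Of all probe sets 4.45% were called lower, 1.99% higher and 6.44% in either direction. The members were chosen with earlier results of these data known, so these shares are descriptions and no test of the list. The groups did not overlap at 8 probe sets that were lower and 1 that was higher with MMS, against 20.5% and 11.3% of all, and 7 of 18 had an unadjusted p under 0.05, against 23.2% of all. The median difference was -0.38 over the 18 probe sets and -0.05 over all. After centring each array on its median 2 of the 18 were called, the medians were -0.19 and 0.14, and 72.8% of all calls were higher, against 30.9% as deposited. In knock-out liver 0 of 18 were called in limma (1.51% of all), 7 of them with an unadjusted p under 0.05 (24.8% of all), and the median difference was -0.24 against -0.06 over all. Without both knock-out arrays numbered 3, when 14.7% of all probe sets were called, 2 of 18 were called lower in the knock-out, Ghr at 1451871_a_at and Stat5b at 1422102_a_at; without treated animal 3 alone, 3 were. With all arrays the knock-out groups did not overlap at 5 lower and 1 higher probe sets, against 13.8% and 12.9% of all. When the response was averaged over the genotypes 4 of 18 were called, all lower, at Ghr, Stat5a and both probe sets of Stat5b, against 6.66% of all called lower and 11.3% called in either direction.

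**Figure D1:**
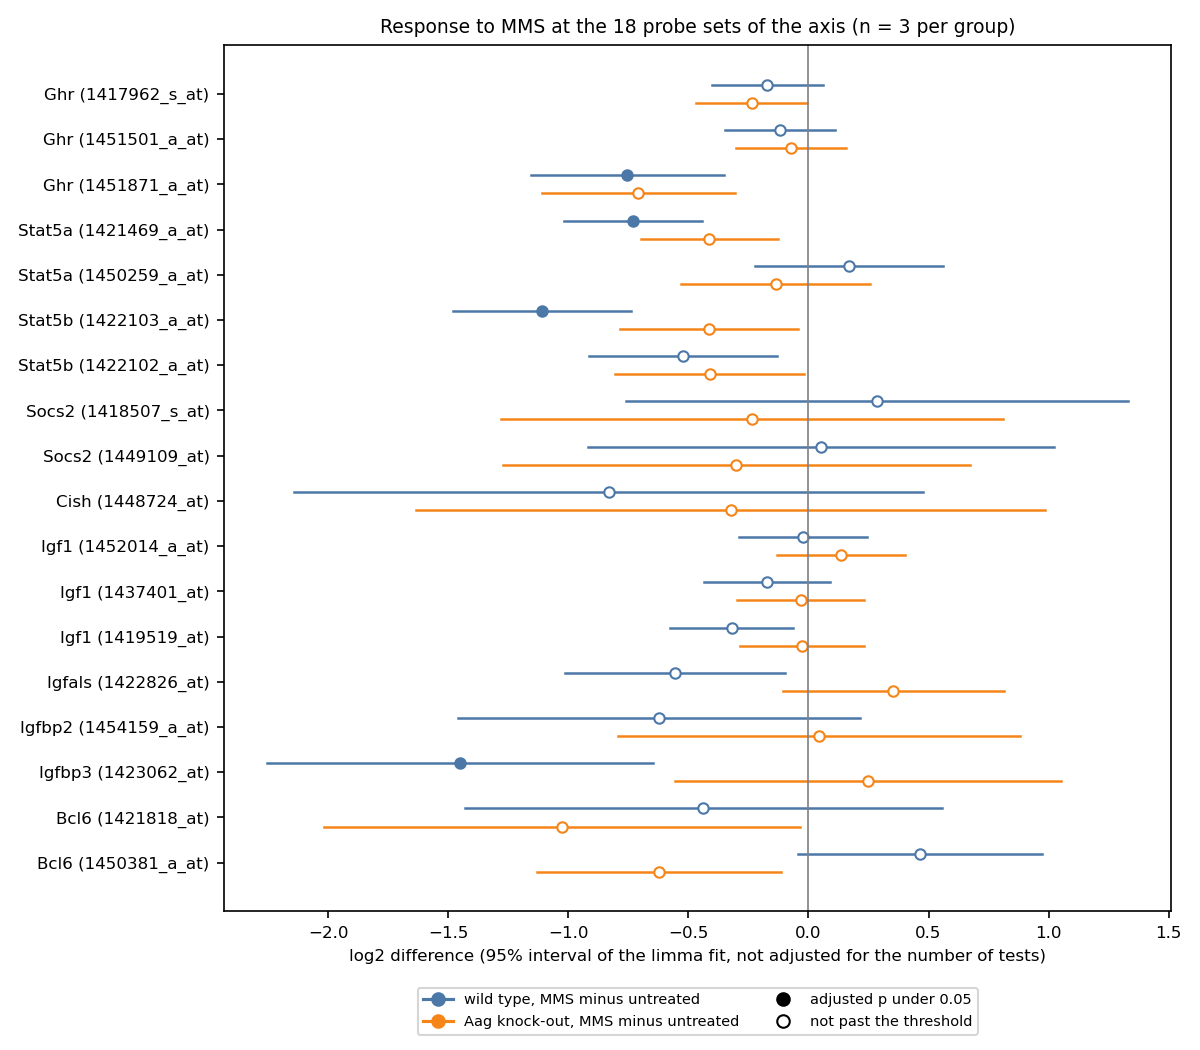
MMS-treated minus untreated difference in log2 expression (horizontal axis) at the 18 probe sets, with wild type in blue, Aag knock-out in orange, and bars for the 95% interval of the limma fit. Filled points passed the threshold: Ghr, Stat5a, Stat5b and Igfbp3 in wild type and none in the knock-out; The widest interval is that of Cish, and among the Igf1 probe sets only that of 1419519_at in wild type leaves out 0.

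The receptor Ghr was called at 1 of its 3 probe sets. At probe set 1451871_a_at the untreated wild-type values were 9.27, 9.30 and 9.57 and the treated ones 8.75, 8.44 and 8.69. In the knock-out they were 9.08, 9.07 and 9.54 without and 8.31, 8.41 and 8.84 with MMS. In each genotype every treated array lay below every untreated array. The fall in wild-type liver was 0.75 ± 0.18 (SE) on the log2 scale, or 1.69-fold (adjusted p = 0.0362). The knock-out difference had nearly the same size, -0.71 ± 0.18, and did not pass (adjusted p = 0.0662), although it did without both knock-out arrays numbered 3 (-0.71, adjusted p = 0.0234), and the responses differed by 0.05 (95% interval -0.52 to 0.61). Averaged over genotypes Ghr fell by 0.73 ± 0.13 (adjusted p = 0.00693).

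The other Ghr probe sets were brighter and their differences smaller. At 1417962_s_at the untreated wild-type values were 13.52, 13.53 and 13.48 and the treated ones 13.37, 13.21 and 13.44, a difference of -0.17 ± 0.11. In the knock-out they were 13.58, 13.59 and 13.55 against 13.39, 13.25 and 13.38, a difference of -0.24 ± 0.11. Neither passed (adjusted p = 0.361 and 0.195), although the groups did not overlap in either genotype. At 1451501_a_at the differences were -0.12 and -0.07 ± 0.10 and the wild-type groups overlapped. Ghr is transcribed into the full receptor and into a soluble binding protein, and the sources used here do not say which of these each probe set reads. The mean of the 3 probe sets gave -0.35 in wild-type liver (adjusted p = 0.0492). The wild-type call at 1451871_a_at was lost when any 1 of the 6 wild-type arrays was left out: values ran from -0.82 to -0.66, with adjusted p of 0.101, 0.0692 and 0.139 without untreated animals 1, 2 and 3 and of 0.0613, 0.106 and 0.0737 without treated animals 1, 2 and 3. It was also lost after centring arrays on their medians (-0.56, adjusted p = 0.0631); the averaged call held in all 18 other settings (highest adjusted p 0.0208).

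Stat5b showed the response with the smallest p among the members. At 1422103_a_at the untreated wild-type values were 10.88, 10.63 and 10.76 and the treated ones 9.43, 9.75 and 9.77, so the lowest untreated value lay well above the highest treated one. Stat5b fell by 1.11 ± 0.17, or 2.16-fold (adjusted p = 0.00645), and the call held in all 20 other settings (highest adjusted p 0.039). In the knock-out the values were 10.79, 10.32 and 10.36 without and 9.85, 10.28 and 10.09 with MMS; the groups did not overlap, with 10.32 the lowest untreated and 10.28 the highest treated value. That difference was -0.42 ± 0.17 (adjusted p = 0.161), and -0.49 without both animals numbered 3 (adjusted p = 0.147). The test of the difference between the responses gave 0.69 ± 0.24 (95% interval 0.17 to 1.22) and did not pass (adjusted p = 0.198).

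The dimmer Stat5b probe set, 1422102_a_at, ran the same way. Its wild-type values were 7.20, 7.09 and 7.18 without and 6.63, 6.67 and 6.60 with MMS, with no overlap and a difference of -0.52 ± 0.18 (adjusted p = 0.107). In the knock-out they were 6.96, 6.92 and 7.29 against 6.43, 6.43 and 7.09, where animal 3 was the highest of both groups. The averaged fall was 0.47 ± 0.13 (adjusted p = 0.038). That call was lost with 11 of the 12 arrays left out in turn (values -0.50 to -0.41, adjusted p 0.0531 to 0.096) and after median centring (adjusted p = 0.0561). Without treated knock-out animal 3 this probe set was called in wild-type liver (-0.52, adjusted p = 0.0286) and in the knock-out (-0.63, adjusted p = 0.0174).

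Stat5a, the close relative that lies next to Stat5b in the genome, also fell in wild-type liver. At 1421469_a_at the values were 10.74, 10.95 and 11.01 without and 10.04, 10.33 and 10.14 with MMS, and the groups did not overlap. Stat5a fell by 0.73 ± 0.13, or 1.66-fold (adjusted p = 0.0123). In the knock-out the values were 10.83, 10.78 and 10.99 without and 10.34, 10.59 and 10.43 with MMS, again without overlap, and the difference was -0.41 ± 0.13 (adjusted p = 0.096), or -0.34 without both animals numbered 3 (adjusted p = 0.171). The averaged fall was 0.57 ± 0.09 (adjusted p = 0.00488). The other probe set, 1450259_a_at, was dim, between 4.84 and 5.63 on all arrays, and stood at 0.17 ± 0.18 in wild-type liver with overlapping groups. The wild-type call at 1421469_a_at was lost without untreated animal 3 (-0.68, adjusted p = 0.0582) and when both probe sets were averaged (-0.28, adjusted p = 0.147).

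**Figure D2:**
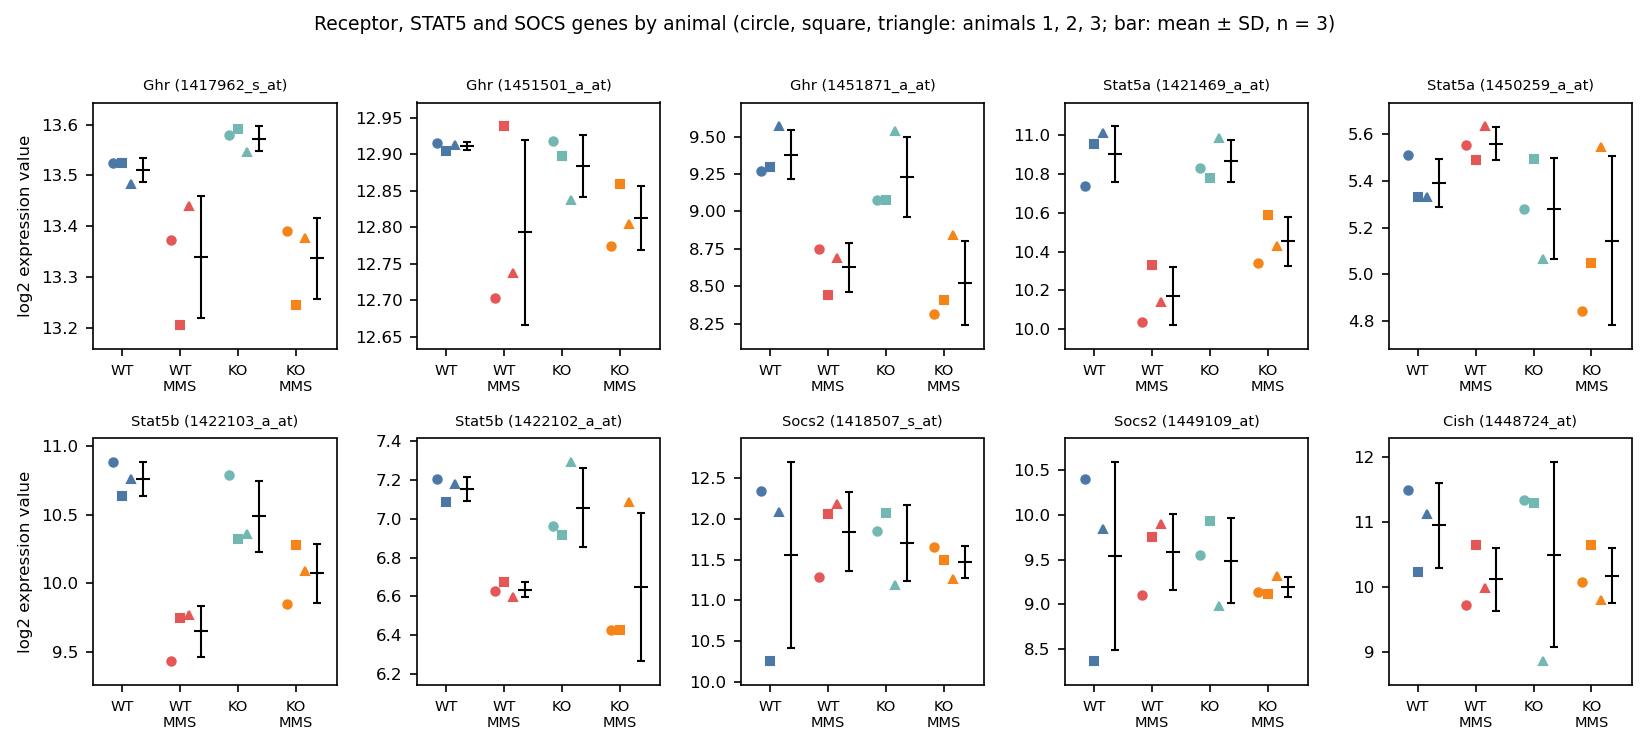
Log2 expression value (vertical axis, a scale of its own in each panel) of every animal at the probe sets of Ghr, Stat5a, Stat5b, Socs2 and Cish in the 4 groups, with the mean and SD of 3 animals in black. Stat5b at 1422103_a_at separates the wild-type groups, from 10.63 upward without MMS to at most 9.77 with it, while Socs2 and Cish spread over more than 2 log2 units among animals.

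Socs2 and Cish, the inhibitors that STAT5 induces, varied more between animals of a group than between groups. At 1418507_s_at the untreated wild-type values of Socs2 were 12.34, 10.25 and 12.08, so animal 2 lay about 2 log2 units below the others. The treated wild-type values were 11.29, 12.07 and 12.18, and the knock-out values 11.85, 12.08 and 11.19 without and 11.66, 11.50 and 11.26 with MMS. All groups overlapped, and the response was 0.29 in wild-type liver (95% interval -0.76 to 1.33) and -0.23 in the knock-out (-1.28 to 0.81). The other Socs2 probe set, 1449109_at, gave 0.05 and -0.30 and had its lowest value, 8.36, in the same untreated wild-type animal. The SD in the untreated wild-type group was 1.14 and 1.06 at these probe sets, against 0.02 for Ghr at 1417962_s_at. A response of Socs2 within these intervals was not detectable with 3 animals a group.

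Cish had values of 11.49, 10.23 and 11.12 in untreated and 9.72, 10.65 and 9.98 in treated wild-type liver. The groups overlapped through untreated animal 2, the animal with the lowest Socs2, and treated animal 2. In the knock-out the values were 11.33, 11.30 and 8.86 without and 10.08, 10.64 and 9.81 with MMS. Untreated animal 3 was the lowest of all 12 arrays for Cish and the lowest of its group for Socs2. The responses were -0.83 in wild-type liver (95% interval -2.14 to 0.48, adjusted p = 0.435) and -0.32 in the knock-out (-1.63 to 0.99, adjusted p = 0.76). The averaged response, -0.58 (adjusted p = 0.4), was -0.99 without untreated knock-out animal 3 (adjusted p = 0.0376) and -0.89 without both knock-out animals numbered 3 (adjusted p = 0.0492).

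Igf1, the hormone that the axis produces, was bright and even across the animals. At 1452014_a_at all 12 values lay between 13.32 and 13.72. They were 13.51, 13.54 and 13.57 in untreated and 13.32, 13.72 and 13.51 in treated wild-type liver, and 13.51, 13.50 and 13.41 against 13.59, 13.71 and 13.53 in the knock-out. The wild-type groups overlapped, while the treated knock-out values lay just above the untreated ones. The responses were -0.02 (95% interval -0.29 to 0.24) and 0.14 (-0.13 to 0.40), so at this probe set neither interval reaches beyond 0.40 log2 units. The other 2 probe sets, 1437401_at and 1419519_at, gave -0.17 ± 0.12 and -0.32 ± 0.12 in wild-type liver. Their 95% intervals there reached down to -0.43 and -0.58. In the knock-out each gave -0.03. By mean level 1452014_a_at stood at percentile 99 of all probe sets, 1437401_at at 93.9 and 1419519_at at 87.2. Whether high brightness narrowed the measured differences was not tested. At 1419519_at the wild-type values were 11.42, 11.49 and 11.62 against 11.08, 11.37 and 11.12, without overlap, and the difference did not pass (adjusted p = 0.129). None of the Igf1 probe sets passed in any comparison, in the same livers in which Stat5a and Stat5b fell.

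Igfbp3, which carries IGF1 in blood, had the largest difference of the members in wild-type liver. The values were 9.74, 9.54 and 10.15 without and 7.79, 8.83 and 8.47 with MMS, and did not overlap. Igfbp3 fell by 1.45 ± 0.37, or 2.73-fold (adjusted p = 0.042). In the knock-out they were 10.13, 9.54 and 9.14 without and 9.70, 10.54 and 9.31 with MMS; these groups overlapped, and the difference was 0.25 ± 0.37 (adjusted p = 0.696), or 0.29 without both animals numbered 3 (adjusted p = 0.635). Treated knock-out liver stood 1.49 ± 0.37 above treated wild-type liver, or 2.80-fold, with no overlap, and this did not pass (adjusted p = 0.116). The difference between the responses was 1.70 ± 0.52 (95% interval 0.56 to 2.83), which did not pass either (adjusted p = 0.169).
The wild-type call of Igfbp3 held in 8 of 19 other settings. It was lost without any 1 of the 6 wild-type arrays (values -1.69 to -1.16; adjusted p = 0.121, 0.0647 and 0.151 without untreated animals 1, 2 and 3, and 0.115, 0.0532 and 0.0835 without treated animals 1, 2 and 3), without untreated knock-out animal 2 (0.0607) or treated knock-out animal 1 (0.0521), with the replicate block (0.0581), and after quantile normalization (0.0528) or median centring (0.0554). Without treated knock-out animal 3 the difference between treated genotypes was called (1.76, adjusted p = 0.037).

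Igfbp3 is made largely by non-hepatocyte cells of the liver. Some markers of such cells were also lower in treated wild-type liver, though most were not called. Of all probe sets 4.45% were called lower and 1.99% higher in wild-type liver, and 1.51% in either direction in the knock-out. Of 12 endothelial markers, 5 fell in wild-type liver and 7 were not called (in the knock-out 1 fell and 11 were not), with a median of -0.50 in wild type and -0.30 in the knock-out against -0.06 over all genes; they include Tek (-0.73 ± 0.13) and Kdr (-0.65 ± 0.13), both growth factor receptors. The mean log2 level of the 12 endothelial markers was 9.27 to 9.43 per array in untreated and 8.77 to 8.84 in treated wild-type liver, against 9.14 to 9.29 and 8.92 to 9.10 in the knock-out. Of 11 stellate cell markers 4 fell in wild-type liver and 0 of 11 were called in the knock-out (median -0.94 in wild type and -0.10 in the knock-out), and their mean was 8.92 to 9.77 without and 8.24 to 8.55 with MMS in wild type and 8.90 to 8.98 and 8.63 to 8.96 in the knock-out. Of 10 macrophage markers Adgre1 fell, Marco rose and 8 were not called (mean 9.89 to 10.45 without and 9.77 to 10.30 with MMS in wild type, 10.18 to 10.48 and 10.33 to 10.78 in the knock-out). Lymphocyte markers, of which 3 of 10 fell in wild-type liver, had a mean of 6.91 to 7.18 without and 6.29 to 6.51 with MMS in wild type and 7.04 to 7.28 and 6.67 to 7.09 in the knock-out. Neutrophil markers, of which 2 of 9 rose, had a mean of 5.35 to 5.62 and 5.76 to 6.30 in wild type and 5.48 to 5.74 and 5.53 to 6.41 in the knock-out. In the knock-out 0 of the macrophage, lymphocyte and neutrophil markers were called by limma. The median of the macrophage markers was -0.38 in wild type and 0.21 in the knock-out. It was -0.72 and -0.33 for lymphocyte markers and -0.03 and 0.16 for neutrophil markers. Without both knock-out arrays numbered 3, endothelial markers had 4 lower and 2 higher calls in the knock-out, and stellate markers 1 of each. Macrophage markers then had 2 lower, lymphocyte markers 3 lower and neutrophil markers 1 higher call. In that setting 5.93% of all probe sets were called lower and 8.77% higher. The part of these cells in the fall of Igfbp3 was not tested, and in whole-liver RNA fewer cells of a type and less RNA per cell cannot be told apart.

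Igfals, made by hepatocytes, had differences of opposite sign in the genotypes, neither of which passed. The wild-type values were 10.82, 11.05 and 11.29 without and 10.08, 10.83 and 10.58 with MMS, touching only at 10.83 and 10.82. The knock-out values were 10.62, 10.69 and 10.97 without and 11.31, 10.86 and 11.19 with MMS, also overlapping. The responses were -0.56 ± 0.21 and 0.35 ± 0.21 (adjusted p = 0.14 and 0.317), the second being 0.42 without both knock-out animals numbered 3 (adjusted p = 0.284), and their difference, 0.91 ± 0.30 (95% interval 0.26 to 1.56), did not pass (adjusted p = 0.183).

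Igfbp2, a hepatocyte product that binds IGF1 outside the large complex, had values of 11.57, 11.17 and 11.14 in untreated and 10.32, 10.97 and 10.71 in treated wild-type liver. These groups did not overlap, and the difference of -0.62 ± 0.38 did not pass (adjusted p = 0.358). In the knock-out the values were 11.45, 10.86 and 12.42 without and 11.91, 12.001 and 10.95 with MMS, where animal 3 was the highest untreated and the lowest treated one. That response was 0.04 ± 0.38, and 0.80 without both animals numbered 3 (adjusted p = 0.0694). Treated knock-out liver lay 0.95 ± 0.38 above treated wild-type liver (adjusted p = 0.228), and 1.28 without both knock-out animals numbered 3 (adjusted p = 0.0284).

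**Figure D3:**
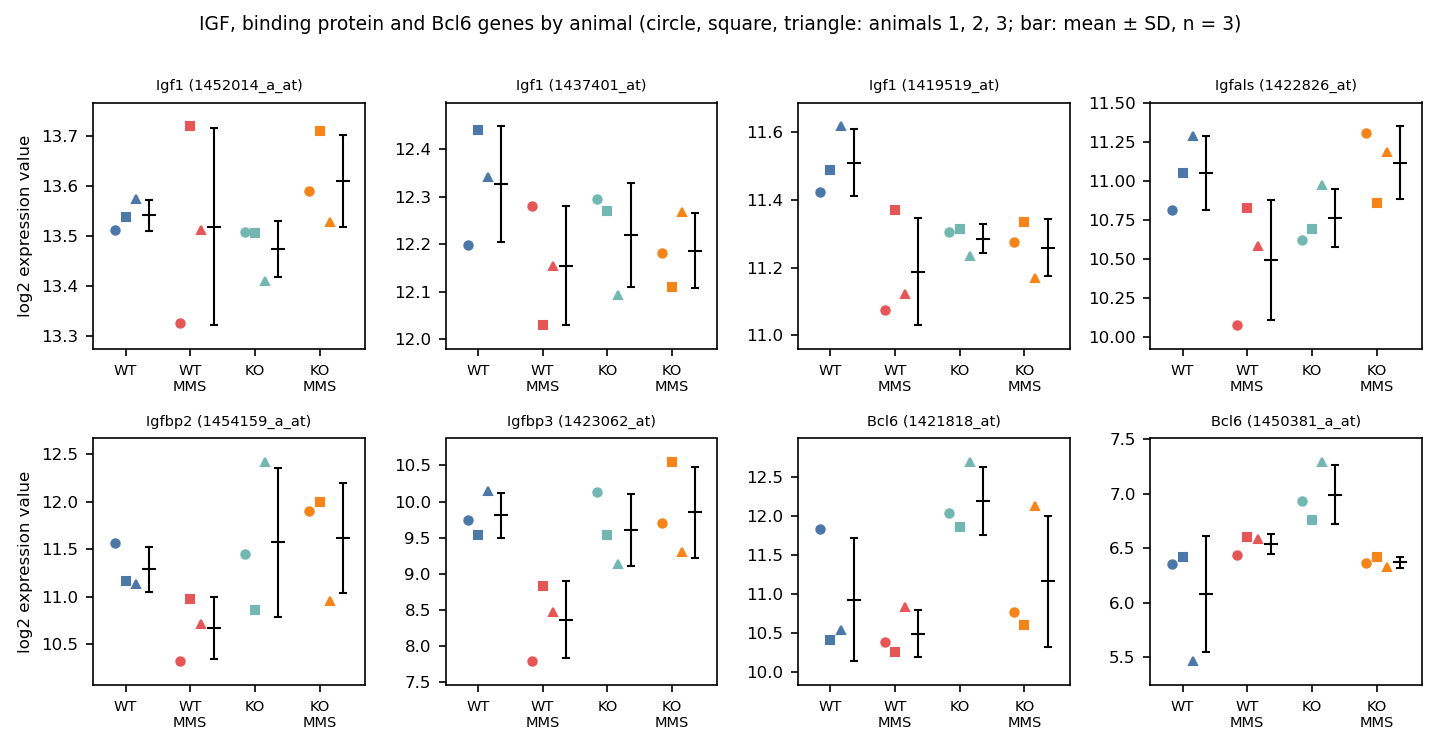
Log2 expression value (vertical axis, a scale of its own in each panel) of every animal at the probe sets of Igf1, Igfals, Igfbp2, Igfbp3 and Bcl6 in the 4 groups, with the mean and SD of 3 animals in black. Igf1 at 1452014_a_at stays between 13.32 and 13.72, whereas Igfbp3 in treated wild-type liver lies at 7.79 to 8.83, below every other array.

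Bcl6, the repressor that opposes STAT5, was the member with the largest difference between untreated genotypes. At 1421818_at the untreated values were 11.83, 10.41 and 10.54 in wild-type and 12.03, 11.86 and 12.69 in knock-out liver, so all 3 knock-out animals lay above all 3 wild-type animals. The difference was 1.26 ± 0.45, or 2.40-fold, and did not pass (adjusted p = 0.563). At the dimmer probe set 1450381_a_at the values were 6.35, 6.42 and 5.46 against 6.93, 6.76 and 7.29, again without overlap, with a difference of 0.92 ± 0.23 (adjusted p = 0.417).
After MMS the values at 1421818_at were 10.38, 10.26 and 10.83 in wild type and 10.77, 10.60 and 12.13 in the knock-out, where animal 3 stood apart. The knock-out response there was -1.03 ± 0.45 (adjusted p = 0.189), and -1.51 without treated animal 3 (adjusted p = 0.0363); without both animals numbered 3 it was -1.26 (adjusted p = 0.0713). At 1450381_a_at the treated values were 6.44, 6.60 and 6.58 in wild type and 6.36, 6.42 and 6.33 in the knock-out. All treated wild-type arrays lay above the untreated ones (0.46 ± 0.23) and all treated knock-out arrays below (-0.62 ± 0.23), and the brighter probe set did not share the wild-type direction (-0.44 ± 0.45).

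With all arrays 0 of the 18 probe sets were called by limma between the genotypes, without MMS (0.0398% of all called) or with it (0.0177% of all). Unadjusted p was under 0.05 at 2 and 5 of the 18, against 7.16% and 18.4% of all. After MMS some probe sets were called once knock-out arrays were left out, as given in the last section. Groups without overlap were found at 5 probe sets in untreated liver, higher in the knock-out at both of Bcl6 and at Ghr 1417962_s_at and lower at 2 of Igf1; of all probe sets 7.52% were higher and 10.8% lower without overlap. After MMS 5 probe sets did not overlap. Stat5a at 1421469_a_at, Stat5b at 1422103_a_at, Igfals and Igfbp3 were higher in the knock-out, and Bcl6 at 1450381_a_at was lower, against 9.92% and 7.71% of all. For the difference between the responses 0 of 18 were called in limma (0% of all), 4 with an unadjusted p under 0.05 (17.7% of all): Stat5b, Igfals, Igfbp3 and Bcl6. A response called in wild type and not in the knock-out is therefore not shown to differ between them.

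**Figure D4:**
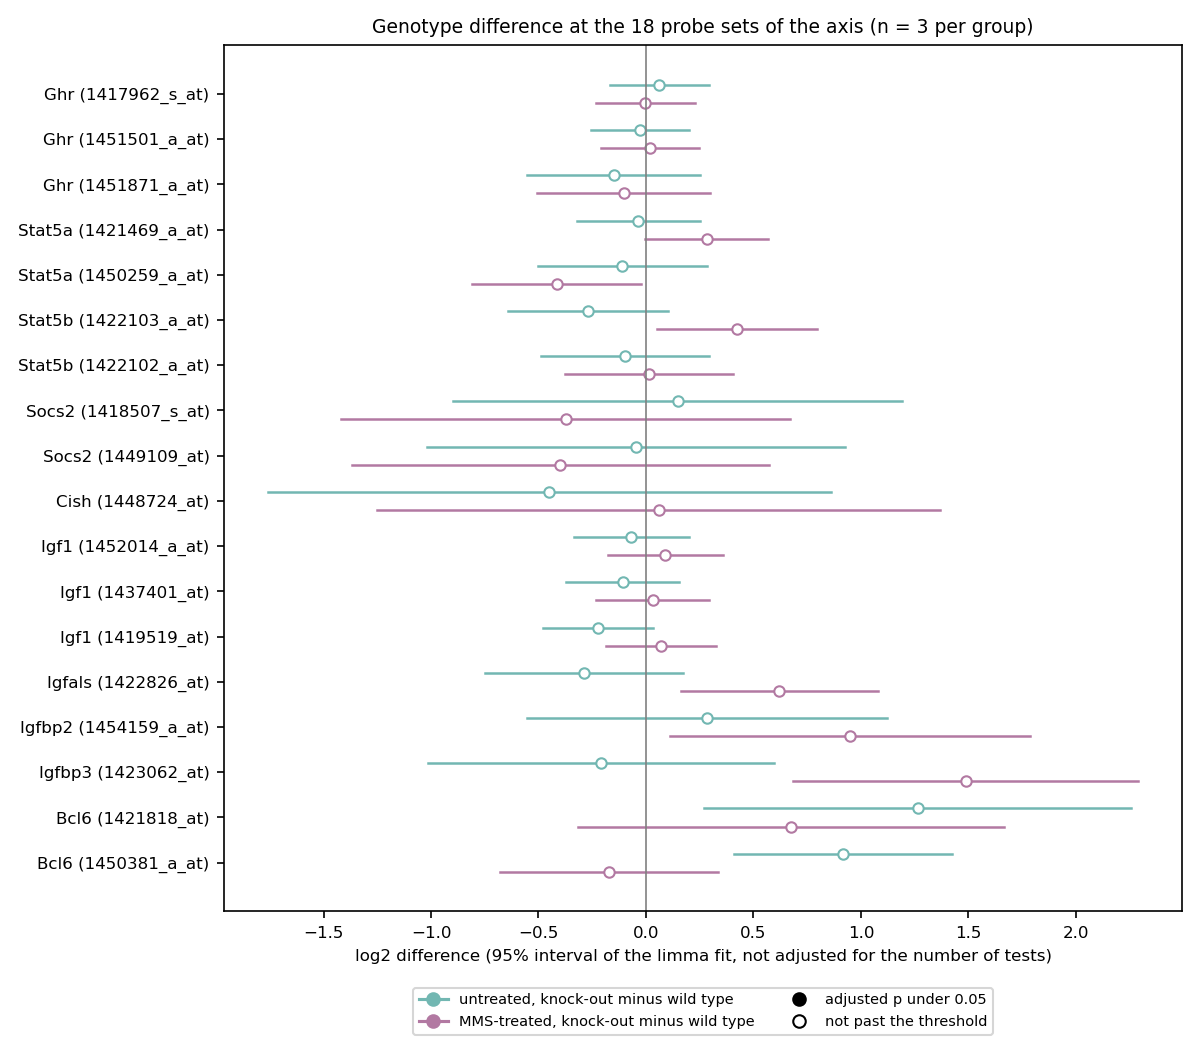
Knock-out minus wild-type difference in log2 expression (horizontal axis) at the 18 probe sets, in untreated liver (green) and after MMS (purple), with bars for the 95% interval of the limma fit. With all arrays no point passed the threshold. The largest differences are those of Bcl6 in untreated liver (1.26) and of Igfbp3 after MMS (1.49).

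Other genes around the receptor moved in both directions. In wild-type liver 1.99% of all probe sets were called higher and 4.45% lower, and in the knock-out 1.51% in either direction. Of 19 listed signalling partners 17 were measured; in wild-type liver 2 rose, 2 fell and 13 were not called (median 0.01 against -0.06 over all genes), and in the knock-out 0 of 17 were called in limma. Irs1, the adaptor of the insulin and IGF1 receptors, fell by 1.51 ± 0.13, or 2.84-fold (adjusted p = 0.0011), and its call held in all 19 other settings. Its range was 11.33 to 11.42 without and 9.65 to 10.10 with MMS in wild type, against 10.70 to 10.86 and 10.73 to 10.80 in the knock-out. Grb10, which inhibits these receptors, fell by 1.01 ± 0.22 (adjusted p = 0.0238). Socs3, a cytokine-induced inhibitor that also acts on the growth hormone receptor, rose by 3.07 ± 0.70 (adjusted p = 0.0291); its values lay at 7.50 to 7.68 without and at 9.90 to 11.74 with MMS. Stat3, which transmits interleukin 6, rose by 0.68 ± 0.17 (adjusted p = 0.044), a call that held in 9 of 19 other settings. Stat3 and the called probe sets of Stat5a and Stat5b thus went opposite ways in the same livers. Averaged over genotypes Ptpn1, a phosphatase of JAK2, rose by 0.55 ± 0.12 (adjusted p = 0.0186), while Jak2 itself was not called. Other settings raised the adjusted p to at most 0.107 for Grb10, 0.101 for Socs3, 0.127 for Stat3 and 0.0526 for Ptpn1, each with the same sign.

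Of the wider IGF family 5 genes fell in the response averaged over genotypes, when 6.66% of all probe sets were called lower. In wild-type liver that share was 4.45%, and in the knock-out 1.51% were called in either direction. Of 15 measured receptors, binding proteins and proteases 2 fell in wild-type liver and 13 were not called (median -0.49), 0 were called in the knock-out in limma (median -0.28), and 5 fell in the averaged response, where all 15 values were negative (median -0.39 against -0.06 over all genes). Without both knock-out arrays numbered 3 the knock-out calls were Htra1, Igf2r and Insr, lower, and the protease Adamts1, higher. Among the signalling partners Ptpn1 was called higher. In that setting 5.93% of all probe sets were called lower and 8.77% higher. Igfbp5, a binding protein of matrix-producing cells, fell by 1.54 ± 0.30 in wild-type liver (adjusted p = 0.016) and Htra1, a protease that cuts binding proteins, by 1.06 ± 0.25 (adjusted p = 0.0325). In the averaged response Igf2r, the receptor that clears IGF2, fell by 0.41 ± 0.10, Insr, the insulin receptor, by 0.39 ± 0.11, and Igfbp7 by 0.30 ± 0.09. Other settings ended these calls, with the highest adjusted p at 0.0561 for Igfbp5 and 0.107 for Htra1 in wild type and 0.0657, 0.154 and 0.107 for Igf2r, Insr and Igfbp7 in the averaged response. Col1a1, a collagen gene of the same matrix-producing cells, fell by 2.49 ± 0.34 in wild-type liver. Of the 11 stellate cell markers it belongs to, 4 were called lower there and 7 were not called. In the knock-out Col1a1 stood at -1.26 ± 0.34 and Igfbp5 at -0.22 ± 0.30, neither of which passed. The part of these cells in the fall of Igfbp5 was not tested.

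Genes whose liver levels depend on the pattern of growth hormone were mostly not called. In the averaged response 6.66% of all probe sets were called lower and 11.3% in either direction. In wild-type liver 4.45% were called lower. Of 11 measured male-biased genes 0 passed limma in the averaged response (median -0.15), with Egfr, a growth factor receptor, at 0.64 ± 0.20 (unadjusted p = 0.00885) and Cyp4a12a, a fatty acid hydroxylase, at -0.38 ± 0.13 (unadjusted p = 0.0117). Of 13 measured female-biased genes Trim24, a nuclear receptor cofactor, rose by 0.96 ± 0.23, Lifr, a cytokine receptor subunit, fell by 0.43 ± 0.10, and 11 were not called (median -0.22). Of 15 transcription factors and cell cycle genes tied to STAT5, Myc fell by 1.60 ± 0.33 in wild-type liver (adjusted p = 0.0208) and 14 were not called (median -0.07). Without both knock-out arrays numbered 3 the knock-out response had 1 higher and 1 lower call among the male-biased genes (Egfr and Cyp4a12a). It had 2 higher among the female-biased (Trim24 and Sult3a1) and 1 lower among the STAT5-linked (Foxa1). In that setting 8.77% of all probe sets were called higher and 5.93% lower. Other settings raised the adjusted p to at most 0.0696 for Trim24, 0.085 for Lifr and 0.0768 for Myc.

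**Figure D5:**
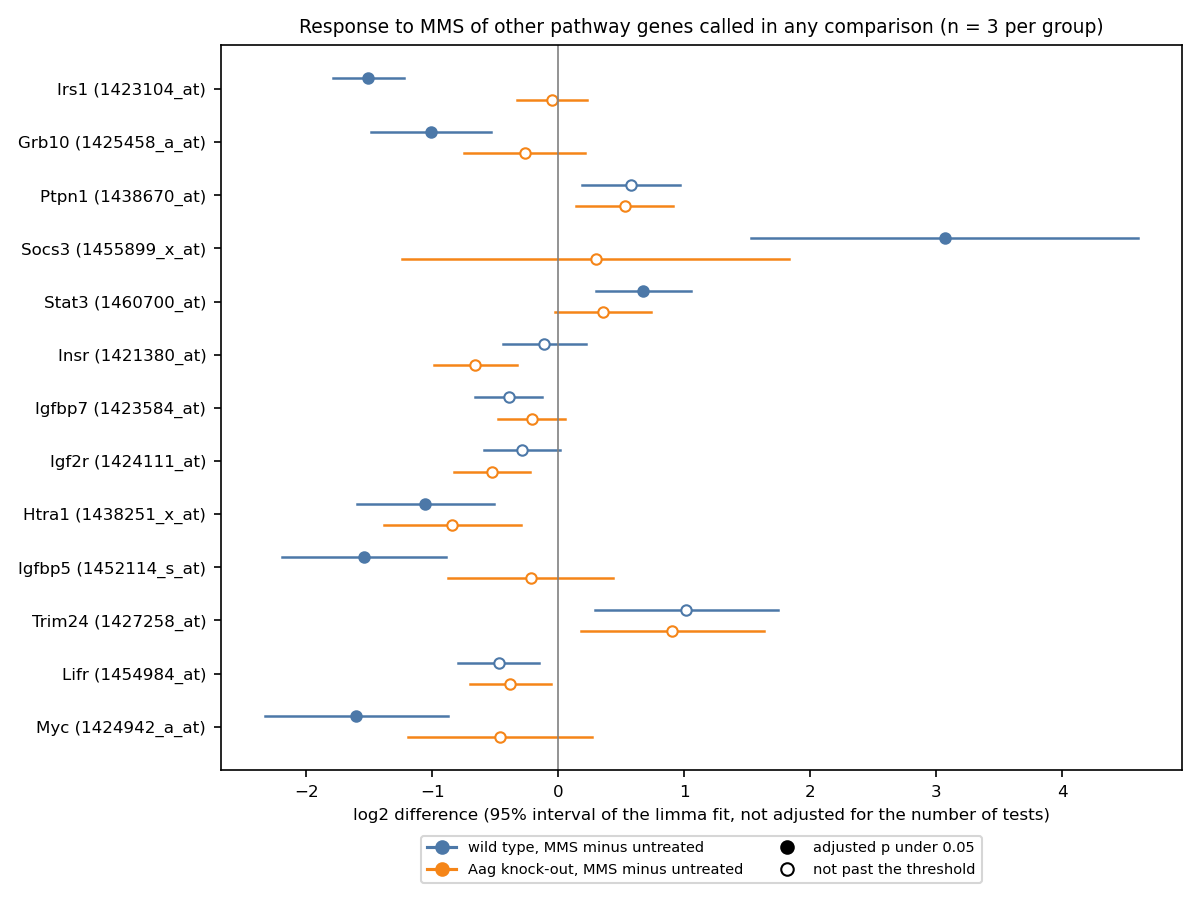
MMS-treated minus untreated difference in log2 expression (horizontal axis) for genes of the pathway lists that were called in any comparison, with wild type in blue, Aag knock-out in orange, and bars for the 95% interval of the limma fit. Irs1, Grb10, Igfbp5, Htra1 and Myc are filled to the left in wild type and Socs3 and Stat3 to the right, and no gene of the knock-out is filled.

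Clock genes and inflammation genes also moved with the groups. Of all probe sets 1.99% were called higher and 4.45% lower in the wild-type response. In the knock-out response 1.51% were called in either direction, and between untreated genotypes 0.0398%. In wild-type liver 5 of 16 clock genes rose, 3 fell and 8 were not called (median 0.67), with Dbp at 4.33 ± 0.47 and Arntl at -3.18 ± 0.65. In untreated liver 3 clock genes were higher in the knock-out. Nr1d1, a repressor of Arntl, was higher by 3.60 ± 0.33, or 12.1-fold (adjusted p = 0.00158), its relative Nr1d2 by 1.49 ± 0.18 (adjusted p = 0.017) and Dbp by 3.36 ± 0.47 (adjusted p = 0.045). These calls held in 18, 13 and 7 of 19 other settings. In the knock-out response 0 of 16 clock genes were called by limma. Without both knock-out arrays numbered 3, 4 rose and 3 fell, when 8.77% of all probe sets were called higher and 5.93% lower. Of 16 acute phase genes 4 rose in wild-type liver and 12 were not called, and their mean log2 level was 12.34 to 12.69 without and 13.12 to 13.24 with MMS, against 12.23 to 12.44 and 12.25 to 13.10 in the knock-out; there, without both arrays numbered 3, 1 rose and 1 fell. Their part in the values of Ghr, Stat5a, Stat5b, Socs2, Cish and Bcl6 was not tested.

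The genes whose values over the 12 arrays ran most like each member were sought among 7043 other genes above the median level, as a description only; all points share the same 12 livers. Stat5b was most like Itm2b (Pearson r = 0.988), Dhrs3 (0.98) and Rin2 (0.977), and Stat5a most like Arhgef18 (0.969). Igf1 ran with Cpn2 (0.95) and Agt (0.915), Igfals with Mdp1 (0.962), Igfbp2 with Vti1a (0.962) and Igfbp3 with Rbm5 (0.954). Ghr at its brightest probe set had Igf2r among its 3 most like genes (0.951). Cish had Arid5b, Clock and Foxa2 (0.872, 0.85 and 0.841), and Bcl6 had Card10 (0.84). Socs2 had the weakest partners, Poli at 0.678 and Chac1 at 0.666.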

How the data were processed

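The livers of 12 mice were profiled, with 1 Affymetrix array per animal. The authors deposited log2 expression values made with RMA, per the submitters' processing notes; its version is not given in the sources read, and the log base was taken from the range of the values. RMA is meant to set arrays to a common scale, yet the medians of the deposited arrays still ran from 7.42 to 7.75. A shift of most genes therefore cannot be told apart from a difference of scale between arrays. No detection calls were used. Of 22690 probe sets 64 controls were left out. Names came from the platform annotation (20380 probe sets with 1 symbol, 691 with several, 1555 with none), 20351 of them updated through a RefSeq gene table. The table had 0 extra sample columns, and 0 pairs of arrays were identical.

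The fit was made in R 4.3.3 by limma 3.58.1, with 4 group means over 12 arrays (8 residual degrees of freedom) and Benjamini-Hochberg adjustment over 22626 probe sets; intervals are 95% and not adjusted. It was tested on simulated data. For the other 15 lists the brightest probe set of a gene was used; members past the threshold could be named, and if none passed, the 2 with the smallest p in the averaged response; Adamts1, Foxa1 and Sult3a1 fall outside this rule and were named after their values were seen. The 10 members and the lists were chosen with earlier results of these data known. Other settings were a filter on the lower quartile, quantile normalization, median centring, the replicate block, a trended robust variance, the compared groups alone, arrays left out, and averaging the probe sets of a gene; a pseudocount was not needed. Replicates are separate animals by their titles, and 3 arrays a group limit the precision of every value. Of 18 correlations between the deviations of same-numbered animals 7 were above 0.1 (range -0.475 to 0.403), and 8 of 12 arrays were most like a same-numbered array. These values cannot show whether same-numbered animals shared a batch or litter, and the sources used here name none. The main fit therefore did not use the numbers, and the replicate block is given as another setting.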

Additional observations from a re-analysis of the deposited data

Results flagged for a closer look

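Bcl6 at probe set 1450381_a_at was higher with MMS in every wild-type array and lower in every knock-out array, without overlap in either genotype. The difference between the responses was -1.09 on the log2 scale, and the limma test of that difference did not pass (adjusted p = 0.164). The brighter Bcl6 probe set, 1421818_at, had a difference of -0.59 with a 95% interval of -1.99 to 0.81. Groups of 3 are too small for a test of single outlying animals, so the low Socs2 and Cish values were not tested in that way.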

How the results depend on the processing

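No called result of a member reversed: of 152 values of the 8 called results under other settings, 120 stayed past the threshold, 32 did not, and 0 changed sign. Of 1894 values of the results not called, 23 passed in another setting and 108 changed sign. The number of the 18 probe sets called was 2 in wild-type liver after median centring (main 4). In the knock-out it was 1 with the lower quartile left out, quantile normalization, median centring or a trended variance, and 2 without both knock-out arrays numbered 3 (main 0), and between treated genotypes 3 without those arrays (main 0). Leaving out 1 array gave 1 to 5 in wild type, 0 to 3 in the knock-out, 3 to 5 averaged, 0 to 0 in untreated genotypes, 0 to 2 in treated genotypes and 0 to 0 for the difference of the responses; the 1 came without untreated wild-type animal 3, and the 3 and the 2 without treated knock-out animal 3.

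Over all probe sets, the counts with 1 array left out ran from 274 to 1798 in wild type (main 1458), 0 to 3264 in the knock-out (341), 1233 to 4307 averaged (2551), 4 to 18 between untreated genotypes (9), 3 to 1118 between treated genotypes (4) and 0 to 158 for the difference of the responses (0, with 4009 at an unadjusted p under 0.05). The 3264 and 1118 came without treated knock-out animal 3. Without both knock-out arrays numbered 3 the counts were 2222, 3326, 4188, 1353 treated and 514 for the difference. In the knock-out response they were 971 with the lower quartile left out, 533 after quantile normalization, 19 with the replicate block, 1029 with a trended variance and 0 with the compared groups alone. Between untreated genotypes the compared groups alone gave 3. Leaving out the lower quartile gave 80 between treated genotypes and 30 for the difference, and a trended variance 64 and 28. The replicate block kept 3 of the 4 wild-type calls of members, and 8 of 12 arrays were most like a same-numbered array, a hint from the data only. The median of all probe sets in the wild-type response moved from -0.05 to 0.14 under median centring, and that of the members from -0.38 to -0.19; of the calls, 30.9% were higher as deposited, 53.7% after quantile normalization and 72.8% after centring, and 40.9%, 53.4% and 63.3% in the averaged response.
The cause of these changes was not tested.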
